A study of Mus musculus with 6 samples.

Results

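The 37 genes described here encode enzymes, carriers and regulators that break down amino acids in mitochondria. They were chosen by name, 24 for the branched-chain amino acids and propionate and 13 for other amino acids. Of the 37, 36 were measured by a probe set of a single gene, among 18193 genes in all, and Amt was not analysed here. Total RNA came from white adipose tissue of 3 KSR2-/- (KO) and 3 wild-type (WT) mice, with 1 Affymetrix array for each mouse. All 6 mice were C57Bl6 females aged 6 months, and the labels name neither the fat depot nor the deleted part of the gene. The KSR2 protein is known to hold the Raf, MEK and ERK kinases together, and the series compares the fat transcripts of mice with and without it.

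Leucine, isoleucine and valine are the branched-chain amino acids, and adipocytes are known to take them up and oxidize them. A mitochondrial aminotransferase removes the amino group, and the branched-chain ketoacid dehydrogenase complex (BCKDH) then commits the carbon skeleton to breakdown. A kinase switches the complex off and a phosphatase switches it on. Leucine carbon ends as acetyl-CoA and acetoacetate, whereas isoleucine and valine give propionyl-CoA, which is carboxylated and enters the tricarboxylic acid (TCA) cycle as succinyl-CoA.

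In KO fat, 32 of the 36 genes measured lower than in WT fat, with a median difference of −0.76 on the log2 scale, against −0.04 over all genes. The branched-chain and propionate genes had a median of −0.89, with 23 of 24 lower, and the other amino acid genes one of −0.28, with 9 of 12 lower. Of all 18193 genes, 55.6% were lower. By limma with Benjamini-Hochberg adjustment over all genes, 0 of the 36 passed 0.05, where 0.0055% of all genes passed, and the lowest adjusted p among them was 0.197. Before adjustment, 16 of the 36 (44.4%) were lower at a limma p under 0.05 and 0 were higher, where 5.38% of all genes were lower and 6.71% higher. Among genes at or above the median mean intensity, 6.6% were lower by that measure. Of the 16 genes, 15 belonged to the branched-chain and propionate group and Prodh was the other. For 12 genes each KO value lay below each WT value, which held for 8.56% of all genes, and for 0 genes each KO value lay above each WT value, against 7.72% of all genes. Differences at or below −1, a 2-fold lower level, were found for 8 of the 36 and for 1.7% of all genes. Without WT 2 the count at an unadjusted p under 0.05 was 9, where 2.86% of all genes were lower at that level. It was 24 without KO 3 and 24 without WT 1, where 7.51% and 7.43% of all genes were, so the share over all genes moved with the count. White fat holds cells other than adipocytes, and in RNA from whole tissue fewer cells of a type and less RNA per cell cannot be told apart.

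The arrays were not alike within the groups, and each value below is given with that in mind. Median intensities on the linear scale were 23.1 to 24.1 on KO arrays and 22.4 to 24.2 on WT arrays. KO 3 correlated across genes with WT 3 at 0.988, and with KO 1 and KO 2 at 0.970 and 0.977. KO 3 and WT 3 carry lower animal numbers than the other 4 mice, and the labels do not say what the numbers mark. The median of the branched-chain and propionate genes was −1.02 among the 4 higher-numbered mice and −0.36 in the lower-numbered pair. In that pair 29 of the 36 genes were lower in KO 3 than in WT 3, where 59.2% of all genes were, and among the higher-numbered mice 32 of the 36, where 53.5% were. The Gapdh control probe sets, whose 3' minus 5' difference tracks RNA integrity, gave 0.47 to 1.46 log2 on KO arrays, 0.07 and 0.69 on WT 1 and WT 2, and 4.18 on WT 3. Ksr2 was dim on every array, at 4.47, 4.28 and 4.26 log2 in KO and 4.74, 4.04 and 4.47 log2 in WT. Its KO minus WT difference was −0.08 (SE 0.21), and since it is not known where its probes lie it does not check the genotype labels.

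Of the 36 genes, Aass and Gldc had means below the median of all genes, and the rest lay above it. Within the KO group, KO 3 was the highest array for 32 of the 36 genes, and for 7149 of all 18193 genes. KO 1 was the lowest of all 6 arrays for 24 genes, and for 23.2% of all genes. KO 2 was lowest for 5, WT 1 for 6 and KO 3 for 1, where they were lowest for 3394, 5254 and 1871 of all 18193 genes. Without KO 3, 7 of the 36 passed limma's adjusted 0.05, all lower, where 1.33% of all genes passed as lower and 4.49% in either direction. They were Aldh6a1, Ivd, Dbt, Hsd17b10, Prodh, Bcat2 and Acadsb, with adjusted p from 0.00876 to 0.0337. Without WT 3, the array with the large Gapdh difference, 0 passed and 12 had an unadjusted p under 0.05, against 3.82% of all genes.

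**Figure D1:**
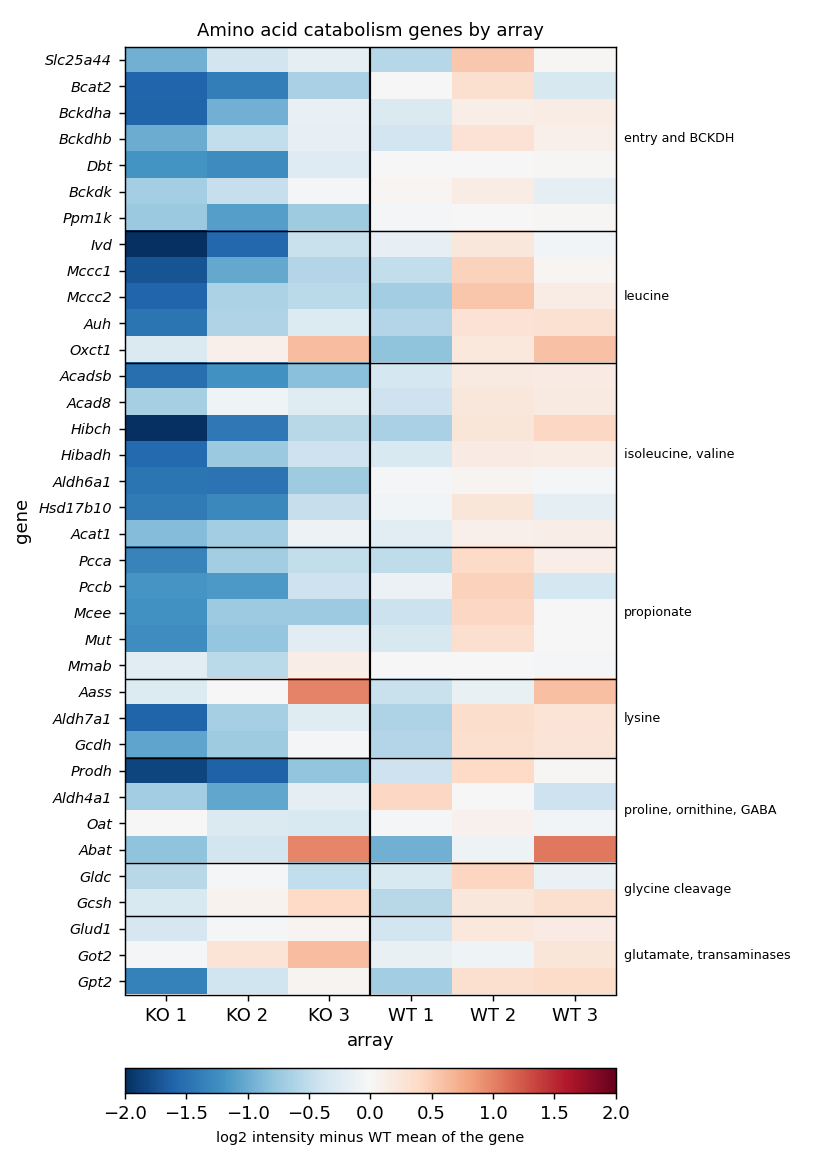
Log2 intensity of 36 amino acid catabolism genes (rows, grouped by pathway) on each array (columns), as the difference from the gene's WT mean, with blue for lower and red for higher. KO 1 and KO 2 are darkest blue in the branched-chain and propionate rows, KO 3 is paler, and WT 1 is paler blue than KO 1 in most rows.

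The entry steps of the branched-chain pathway were lower in all 7 measured genes, 4 of them at an unadjusted limma p under 0.05. Over all genes 5.38% were lower at that level. Bcat2, the mitochondrial branched-chain aminotransferase, read 5.43, 5.64 and 6.38 log2 in KO, against 7.02, 7.34 and 6.71 log2 in WT. The groups did not overlap, and KO 3 came nearest to WT. The KO mean was 5.82 ± 0.50 and the WT mean 7.02 ± 0.32 (SD, n = 3 each), a difference of −1.21 (SE 0.29, limma adjusted p = 0.240). Dbt, the E2 core subunit of BCKDH, read 7.86, 7.80 and 8.81 log2 in KO, against 9.04, 9.06 and 9.08 log2 in WT. The WT arrays were almost identical, and KO 3 came nearest to them (difference −0.90, SE 0.28, limma adjusted p = 0.301). Bckdha and Bckdhb, the E1 subunits, differed by −0.90 (SE 0.36) and −0.54 (SE 0.27) with overlapping groups. Slc25a44, the mitochondrial carrier that imports branched-chain amino acids, differed by −0.51 (SE 0.33).

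The regulators of the complex were both lower. Ppm1k, the phosphatase that activates BCKDH, read 7.45, 7.09 and 7.48 log2 in KO, against 8.16, 8.20 and 8.23 log2 in WT. All 3 KO arrays, KO 3 included, lay clearly below the lowest WT array. The means were 7.34 ± 0.22 in KO and 8.20 ± 0.03 in WT (SD, n = 3 each), a difference of −0.86 (SE 0.17, limma adjusted p = 0.197), and −0.75 within the lower-numbered pair. A second, dimmer Ppm1k probe set (mean 5.45 log2) differed by −0.13 (SE 0.15). Bckdk, the kinase that inactivates BCKDH, read 8.22, 8.43 and 8.85 log2 in KO, against 8.93, 9.05 and 8.70 log2 in WT. KO 3 lay above WT 3, so the groups overlapped (difference −0.39, SE 0.21, limma adjusted p = 0.525). A second, dimmer Bckdk probe set (mean 6.26 log2) read 5.99, 5.87 and 6.15 log2 in KO, against 6.38, 6.54 and 6.62 log2 in WT. Its groups did not overlap (difference −0.51, SE 0.15), so the overlap held for the brighter probe set only.

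In the leucine arm 4 of 5 genes were lower. Ivd, isovaleryl-CoA dehydrogenase, read 8.28, 8.78 and 9.90 log2 in KO, against 10.18, 10.57 and 10.29 log2 in WT. KO 3 stood more than 1 log2 above the other KO arrays and below WT 1. The difference was −1.36 (SE 0.39, limma adjusted p = 0.277), or 2.57-fold higher in WT, and −0.39 within the lower-numbered pair. Mccc1, the biotin-carrying subunit of methylcrotonyl-CoA carboxylase, read 9.21, 9.91 and 10.35 log2 in KO, against 10.44, 11.39 and 10.97 log2 in WT. KO 3 and WT 1 nearly met, without overlap (difference −1.11, SE 0.35, limma adjusted p = 0.303). Its partner subunit Mccc2 differed by −0.91 (SE 0.40) and Auh, methylglutaconyl-CoA hydratase, by −0.78 (SE 0.37), both with WT 1 among the KO values. A dimmer Mccc2 probe set (mean 7.86 log2) differed by −1.07 (SE 0.25) without overlap, and the dimmest (mean 4.58 log2) by −0.98 (SE 0.49) with overlap.

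Oxct1 encodes the succinyl-CoA transferase that activates acetoacetate, a ketone body formed from leucine. It read 10.66, 11.06 and 11.58 log2 in KO, against 10.15, 11.17 and 11.54 log2 in WT. The groups overlapped fully, and the difference was 0.14 (SE 0.39, limma adjusted p = 0.939). Its other 3 probe sets differed by 0.06 to 0.23. Without KO 3 the sign turned, at −0.10, and without WT 1 it was −0.26.

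All 7 genes of the isoleucine and valine arm were lower, with a median of −1.06, and 5 had an unadjusted limma p under 0.05. Over all genes 5.38% were lower at that level. Aldh6a1, methylmalonate semialdehyde dehydrogenase, which closes the valine path, read 10.16, 10.15 and 10.91 log2 in KO, against 11.60, 11.68 and 11.61 log2 in WT. The WT arrays lay within 0.1 log2 of each other and all KO arrays were clearly below them. The means were 10.41 ± 0.44 in KO and 11.63 ± 0.04 in WT (SD, n = 3 each), a difference of −1.22 (SE 0.23, limma adjusted p = 0.197). Acadsb, short/branched-chain acyl-CoA dehydrogenase, which acts on the isoleucine skeleton, read 8.67, 8.97 and 9.33 log2 in KO, against 9.83, 10.36 and 10.34 log2 in WT. KO 3 stayed below WT 1, and the lower-numbered pair differed by −1.01, close to the whole difference of −1.18 (SE 0.24, limma adjusted p = 0.197). Hsd17b10, which oxidizes a later isoleucine intermediate, read 8.91, 9.04 and 9.86 log2 in KO, against 10.28, 10.56 and 10.15 log2 in WT. The groups did not overlap, with a difference of −1.06 (SE 0.28, limma adjusted p = 0.248) that was −0.29 within the lower-numbered pair.

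Hibch, the hydrolase that frees hydroxyisobutyrate from CoA in the valine path, had the largest difference of the 36, a KO over WT ratio of 0.353 (SE 0.51 log2), but KO 3 at 9.93 log2 exceeded WT 1 at 9.84. Its second, dimmer probe set (mean 6.83 log2) differed by −1.63 (SE 0.40) without overlap. Hibadh, which oxidizes hydroxyisobutyrate, differed by −0.90 (SE 0.31) without overlap. Acat1, the thiolase of the last isoleucine step, differed by −0.55 (SE 0.24). Acad8, isobutyryl-CoA dehydrogenase, the valine counterpart of Acadsb, differed by −0.33 (SE 0.24), and its second probe set by −0.64 (SE 0.16).

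Propionate genes were lower in 5 of 5. Pccb, the carboxyltransferase subunit of propionyl-CoA carboxylase, read 7.81, 7.85 and 8.58 log2 in KO, against 8.88, 9.46 and 8.64 log2 in WT. KO 3 and WT 3 were nearly equal, at −0.07 apart, and the difference was −0.91 (SE 0.29, limma adjusted p = 0.308). Mcee, the methylmalonyl-CoA epimerase, read 7.34, 7.83 and 7.82 log2 in KO, against 8.12, 8.95 and 8.56 log2 in WT. All KO arrays were below all WT arrays, and the pair of lower animal numbers differed by −0.74, near the whole difference of −0.88 (SE 0.26, limma adjusted p = 0.277). Pcca, the biotin-carrying partner of Pccb, differed by −0.84 (SE 0.31) and Mmut (formerly Mut), the methylmalonyl-CoA mutase, by −0.74 (SE 0.30), both with overlap. Mmab, which makes the cobalamin cofactor of that mutase, differed by −0.21 (SE 0.20), with KO 3 the highest array. Mmab is the 1 measured member on chromosome 5, where Ksr2 also lies.

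**Figure D2:**
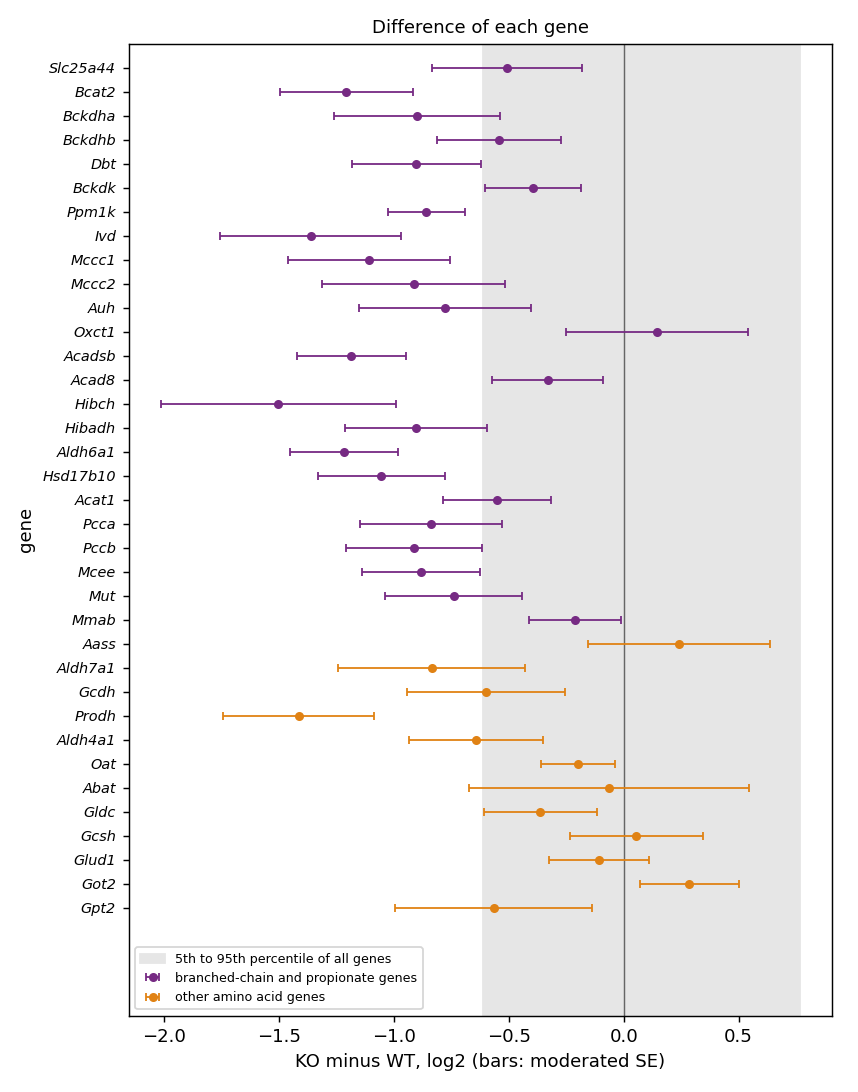
KO minus WT difference of each gene on the log2 scale, with bars for the moderated standard error (6 arrays, 3 per genotype). The grey band spans the 5th to 95th percentile of all 18193 genes (−0.61 to 0.77), and most branched-chain and propionate genes lie to its left, whereas most other amino acid genes lie inside it.

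Among the other amino acid genes, Prodh lay furthest below 0. Prodh, proline dehydrogenase, the first step of proline breakdown, read 6.12, 6.35 and 7.18 log2 in KO, against 7.55, 8.37 and 7.98 log2 in WT. The groups did not overlap, with a difference of −1.41 (SE 0.33, limma adjusted p = 0.234), or 2.67-fold higher in WT. Aldh4a1, the second proline enzyme, read 6.34, 5.99 and 6.85 log2 in KO, against 7.45, 7.04 and 6.62 log2 in WT. It differed by −0.64 (SE 0.29, limma adjusted p = 0.450), but KO 3 lay 0.23 above WT 3. Oat, ornithine aminotransferase, differed by −0.20 (SE 0.16), and Abat, GABA transaminase, by −0.06 (SE 0.61). Abat read higher in the lower-numbered pair, at 8.25 in KO 3 and 8.33 in WT 3, against 6.47 and 6.91 in KO 1 and KO 2 and 6.32 and 7.18 in WT 1 and WT 2, and its difference was 0.46 without WT 3 and −0.58 without KO 3.

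Of the lysine genes 2 of 3 were lower and 0 had an unadjusted limma p under 0.05. Aldh7a1, aminoadipate semialdehyde dehydrogenase, read 7.18, 8.12 and 8.54 log2 in KO, against 8.16, 9.14 and 9.05 log2 in WT (difference −0.84, SE 0.41, limma adjusted p = 0.482). Gcdh, glutaryl-CoA dehydrogenase, read 6.47, 6.82 and 7.50 log2 in KO, against 6.95, 7.85 and 7.79 log2 in WT (difference −0.60, SE 0.34, limma adjusted p = 0.560). In both the groups overlapped, and KO 1 was the lowest array. The other 2 Aldh7a1 probe sets were dim, with means of 2.79 and 3.27 log2, and differed by 0.10 each. Aass, which starts lysine breakdown, was dim, at 3.26, 3.53 and 4.53 log2 in KO and 3.08, 3.39 and 4.13 log2 in WT, near or below the 20th percentile of gene means (3.46) on most arrays (difference 0.24, SE 0.40, limma adjusted p = 0.882). Without KO 3 its difference was −0.14.

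Glycine cleavage was represented by 2 of 3 genes. Gldc, the glycine decarboxylase subunit, was dim, at 3.42, 3.93 and 3.49 log2 in KO and 3.68, 4.41 and 3.85 log2 in WT (difference −0.36, SE 0.25, limma adjusted p = 0.643). Gcsh, the lipoyl-carrying H protein, was bright, at 10.47, 10.84 and 11.16 log2 in KO and 10.22, 10.98 and 11.09 log2 in WT. Its groups overlapped fully, and its difference of 0.06 (SE 0.29, limma adjusted p = 0.973) became −0.22 without WT 1 and −0.11 without KO 3.

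Glutamate dehydrogenase and the aminotransferases, which pass nitrogen between amino acids and ketoacids, had a median difference of −0.11, and 0 of 3 had an unadjusted limma p under 0.05. Got2, the mitochondrial aspartate aminotransferase, read 8.58, 8.87 and 9.22 log2 in KO, against 8.46, 8.51 and 8.84 log2 in WT. It was the gene of the 36 furthest above 0, at 0.29 (SE 0.22, limma adjusted p = 0.681), with overlapping groups. Glud1, glutamate dehydrogenase, differed by −0.11 (SE 0.22). Gpt2, the mitochondrial alanine aminotransferase, differed by −0.56 (SE 0.43), and its other 3 probe sets by −1.02 to −0.90. Those 3, with means of 6.78, 8.25 and 7.09 log2, had an unadjusted limma p of 0.0068, 0.038 and 0.098. The groups were apart in the first and overlapped in the others, so the probe set used gave the smallest difference for Gpt2.

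**Figure D3:**
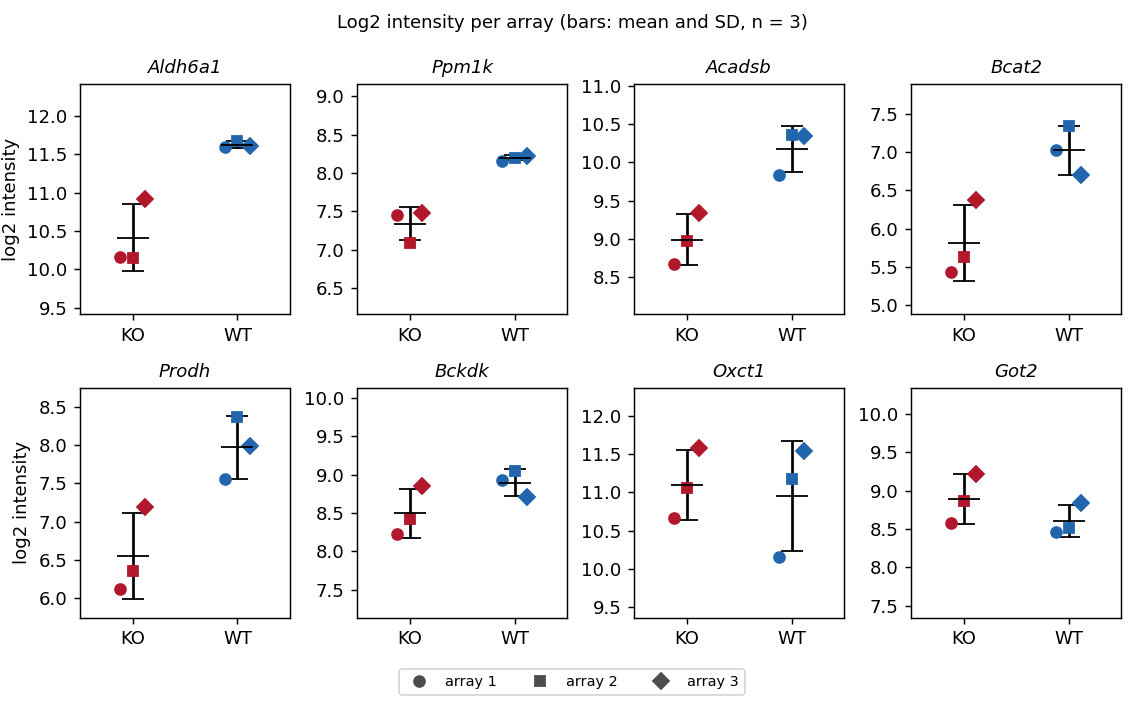
Log2 intensity of 8 genes per array, KO left and WT right in each panel, with the mean and SD of 3 arrays, and each panel spanning 3 log2 units. The groups are apart for Aldh6a1, Ppm1k, Acadsb, Bcat2 and Prodh and overlap for Bckdk, Oxct1 and Got2.

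To set the branched-chain and propionate genes against the other amino acid genes on the same arrays, each gene was expressed as its deviation from its WT mean and averaged. Branched-chain and propionate genes gave mean log2 deviations of −1.25, −0.86 and −0.35 in KO, against −0.31, 0.25 and 0.06 in WT. KO 3 thus lay only just below WT 1. The other amino acid genes gave −0.74, −0.40 and 0.09 in KO, against −0.39, 0.17 and 0.22 in WT, and their groups overlapped. The gap between both sets on each array, branched-chain and propionate minus other, was −0.52, −0.45 and −0.44 in KO, against 0.09, 0.08 and −0.17 in WT. In this gap KO 3 sat beside the other KO arrays. It is a description of genes chosen with earlier results known, with no test attached.

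By mean deviation the other mitochondrial lists shifted in the same direction by less. Beside enzymes of the cycle, the TCA cycle list held Pdha1, Pdhb and Dlat of the pyruvate dehydrogenase complex (differences −0.98, −1.11 and −0.53, each without overlap). With these included, the mean deviation of 19 TCA cycle genes was −0.97, −0.51 and −0.27 in KO, against −0.22, 0.25 and −0.03 in WT. That of 34 respiratory chain genes was −0.91, −0.44 and −0.19 in KO, against −0.24, 0.20 and 0.03 in WT. Fatty acid oxidation (15 genes) averaged −0.32 and the mitochondrial ribosome (30 genes) −0.31, against −0.82 for the branched-chain and propionate genes. Branched-chain and propionate minus respiratory chain was −0.35, −0.42 and −0.16 in KO, against −0.07, 0.05 and 0.03 in WT, and minus TCA cycle −0.28, −0.34 and −0.08 in KO, against −0.09, −0.00 and 0.09 in WT. In the comparison with the TCA cycle KO 3 lay between WT 1 and WT 2. Unadjusted limma p under 0.05 and a lower value were found for 10 of the 19 TCA cycle genes, 14 of the 34 respiratory chain genes, 4 of the 15 fatty acid oxidation genes and 4 of the 30 ribosomal genes, against 5.38% of all genes. Cpt1a, which admits long-chain fatty acids to mitochondria, was higher at that level, at 9.71, 9.67 and 8.87 log2 in KO, against 8.09, 8.39 and 8.07 log2 in WT (difference 1.24, SE 0.26, limma adjusted p = 0.210). It was the 1 gene of these 4 lists that was, where 6.71% of all genes were higher. Each KO value lay below each WT value for 9 of the 19 TCA cycle genes and 15 of the 34 respiratory chain genes. It did for 3 of the 15 fatty acid oxidation genes and 5 of the 30 ribosomal genes. For the branched-chain and propionate genes it was 11 of 24, a share like that of the first 2 lists, against 8.56% of all genes. The lower direction was thus shared with the other mitochondrial lists, and the size of the gap was not tested.

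**Figure D4:**
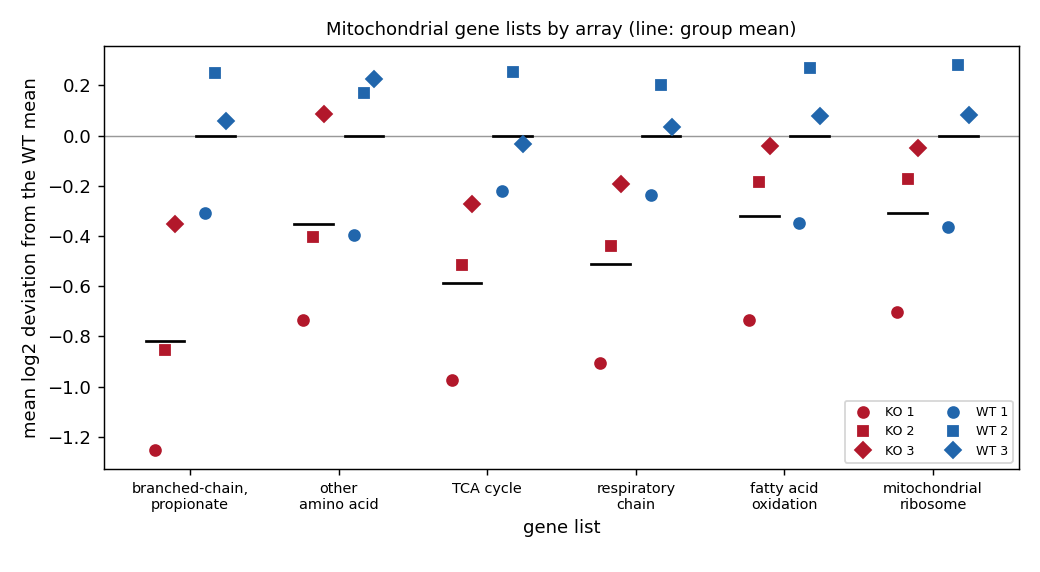
Mean log2 deviation from the WT mean for 6 lists of mitochondrial genes, 1 point per array, with KO in red left of WT in blue and a line at each group mean. KO 1 is lowest in every list, KO 3 is nearest to WT, and the branched-chain and propionate genes have the lowest KO mean (−0.82).

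Genes that share steps or cofactors with the pathway were read from further lists, which partly overlap those above. Of the shared-step genes, Echs1, Hadh, Hadha, Hadhb, Acaa2 and Acads also stand in the fatty acid oxidation list. Dlst stands in both the TCA cycle list and that of further amino acid enzymes. The counts of these lists are thus not separate. Of 10 measured genes of shared steps 9 were lower, 4 of them at an unadjusted limma p under 0.05, and 1 was higher at that level. Over all genes 5.38% were lower and 6.71% higher by that measure. The higher one was Bcat1, the cytosolic counterpart of Bcat2, at 5.91, 6.72 and 5.88 log2 in KO, against 3.86, 4.46 and 4.99 log2 in WT. The groups did not overlap, and the difference of 1.73 (SE 0.35, limma adjusted p = 0.197) ran opposite to that of Bcat2 both on the higher-numbered arrays (2.15) and in the lower-numbered pair (0.90). Echs1, enoyl-CoA hydratase, differed by −1.09 (SE 0.32), Dld, the E3 subunit that BCKDH shares with other dehydrogenases, by −0.66 (SE 0.21), and Hadh, hydroxyacyl-CoA dehydrogenase, by −0.45 (SE 0.17). Etfa and Etfb, which take electrons from the acyl-CoA dehydrogenases Ivd, Acadsb, Acad8 and Gcdh, differed by −0.46 (SE 0.18) and −0.48 (SE 0.22). Etfdh, which takes the electrons on from Etfa and Etfb, differed by −0.35 (SE 0.18).

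Among 8 genes of biotin and cobalamin use 7 were lower, but with a median of −0.17. Pcx, the biotin enzyme pyruvate carboxylase, differed by −1.05 (SE 0.32), −1.53 on the higher-numbered arrays and −0.10 in the lower-numbered pair. Mmaa, which guards methylmalonyl-CoA mutase, differed by −0.57 (SE 0.27), Mmachc, which processes cobalamin in the cytosol, by −0.55 (SE 0.32), and Btd, the biotinidase, by −0.21 (SE 0.27).

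Amino acid transporters of the plasma membrane were higher in 4 of 5, 1 of them at an unadjusted limma p under 0.05. Over all genes 6.71% were higher at that level, and 55.6% had a difference below 0. Slc7a5, the light chain of the LAT1 exchanger for large neutral amino acids, read 5.61, 5.54 and 5.07 log2 in KO, against 4.88, 4.62 and 4.77 log2 in WT. Its groups did not overlap, at a low level (difference 0.65, SE 0.20, limma adjusted p = 0.288). Slc43a2 differed by 1.01 (SE 0.48) and Slc7a8 by 0.46 (SE 0.25), and Slc43a1 by −1.21 (SE 0.60), all 3 with overlap.

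Of 20 further amino acid enzymes 15 were lower, 4 of them at an unadjusted limma p under 0.05, and 3 were higher at that level. Over all genes 5.38% were lower and 6.71% higher by that measure. Asns, asparagine synthetase, read 7.73, 8.35 and 9.13 log2 in KO, against 9.85, 10.14 and 10.07 log2 in WT. The difference was −1.62 (SE 0.34, limma adjusted p = 0.210), with no overlap. Dhtkd1, a dehydrogenase of lysine and tryptophan breakdown, differed by −1.08 (SE 0.26), and Hpd, of tyrosine breakdown, by −0.53 (SE 0.22) at a low level. Got1, the cytosolic partner of Got2, read 6.81, 7.08 and 6.46 log2 in KO, against 5.53, 5.99 and 6.10 log2 in WT, with no overlap (difference 0.91, SE 0.23, limma adjusted p = 0.248). Aldh18a1, which makes the precursor of proline, differed by 1.15 (SE 0.47), and by 0.13 in the lower-numbered pair. Arg1, the arginase that alternatively activated mouse macrophages also express, differed by 2.05 (SE 0.84), with KO 3 below WT 3. The mean of Arg1 lay below the median of all genes.

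All 7 transcriptional regulators listed measured below 0, 4 at an unadjusted limma p under 0.05, where 5.38% of all genes were lower. In the lower-numbered pair 4 of the 7 were lower, where 59.2% of all genes were, and Ppara and Esrra were higher by 0.47 and 0.36. Ppargc1a, the coactivator of mitochondrial genes, read 3.63, 3.40 and 3.92 log2 in KO, against 5.57, 5.61 and 4.69 log2 in WT, without overlap (difference −1.64, SE 0.29, limma adjusted p = 0.193). Its level was low, with its mean below the median of all genes and KO 2 below the 20th percentile of gene means (3.46). Klf15, a factor known to drive amino acid catabolic genes in liver and muscle of mice, read 7.46, 7.94 and 8.48 log2 in KO, against 8.48, 9.31 and 9.20 log2 in WT. KO 3 and WT 1 met at 8.48 (difference −1.03, SE 0.33, limma adjusted p = 0.302). Mlxipl, which encodes the carbohydrate-sensing factor ChREBP, differed by −1.03 (SE 0.37) but by 0.02 in the lower-numbered pair, and Srebf1 by −0.86 (SE 0.33). Esrra, the estrogen-related receptor alpha, differed by −0.01 (SE 0.17).

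**Figure D5:**
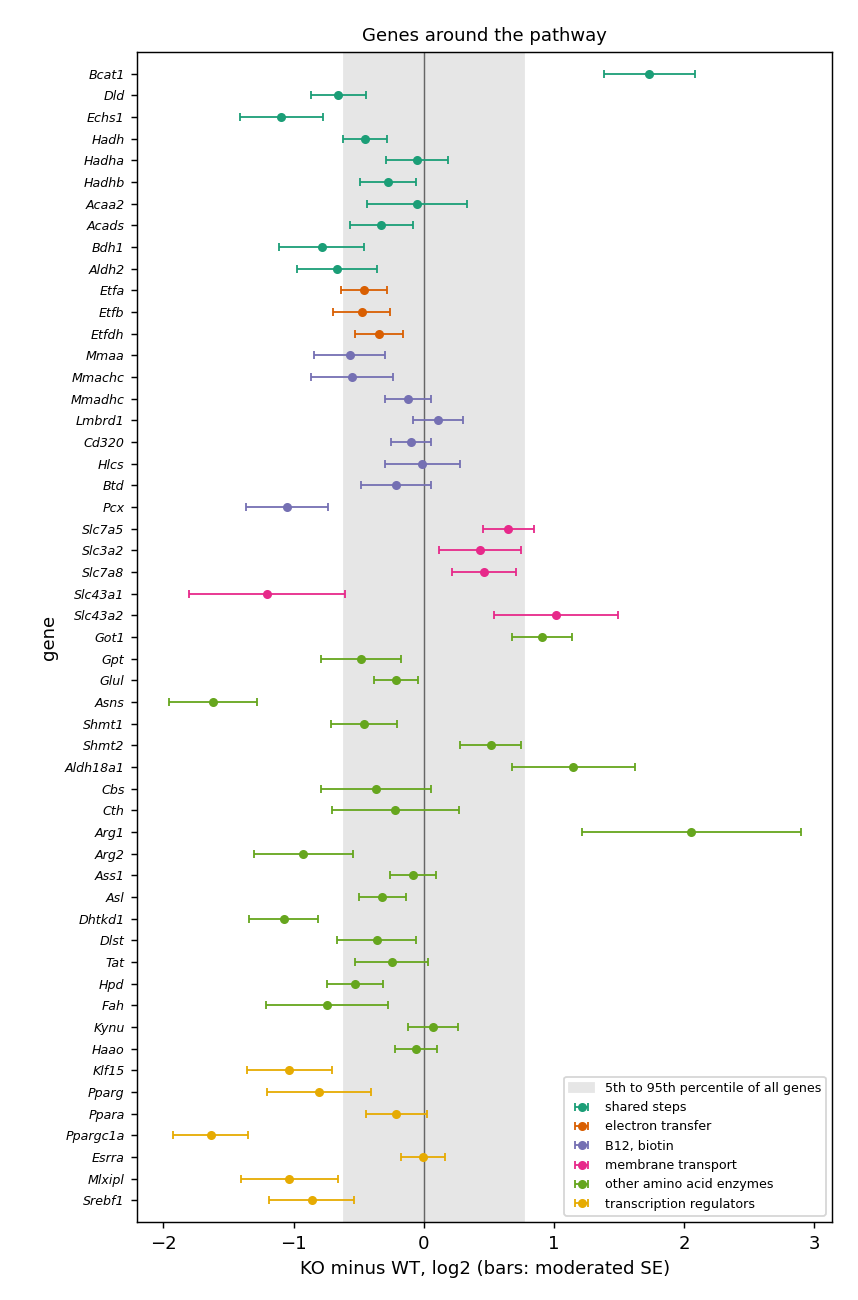
KO minus WT difference on the log2 scale of 53 genes around the pathway, coloured by list, with bars for the moderated standard error and a grey band from the 5th to the 95th percentile of all genes. Bcat1 (1.73), Slc43a2 (1.01), Got1 (0.91), Aldh18a1 (1.15) and Arg1 (2.05) lie to the right of the band, and Asns (−1.62) and Ppargc1a (−1.64) far to its left.

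Markers of other cell types moved with the genotypes to different degrees. Macrophage markers were higher in 12 of 12 genes, with summed log2 intensities of 108.9 to 122.3 in KO and 103.2 to 105.5 in WT. Their mean deviation was 1.49, 1.44 and 0.38 in KO, against −0.00, 0.10 and −0.10 in WT, so KO 1 and KO 2, with the lowest amino acid catabolism genes, had the highest macrophage markers. Adipocyte markers were lower in 5 of 7 measured genes, with sums of 81.1 to 88.8 in KO and 83.5 to 86.9 in WT. The 7 went both ways, from −1.23 to 1.45. Lep, the hormone leptin, read 11.80, 12.40 and 12.46 log2 in KO, against 9.42, 11.13 and 11.76 log2 in WT, higher without overlap (difference 1.45, SE 0.57). Retn, the hormone resistin, read 11.38, 11.88 and 13.16 log2 in KO, against 13.37, 13.42 and 13.31 log2 in WT, lower without overlap (difference −1.23, SE 0.42). Adiponectin (Adipoq) differed by −0.51 (SE 0.21), without overlap. The lipases Pnpla2 and Lipe differed by −0.79 (SE 0.36) and −0.21 (SE 0.48), the lipid droplet protein Cidec by 0.16 (SE 0.40) and the fatty acid binding protein Fabp4 by −0.06 (SE 0.15), all 4 with overlap. Adipoq was bright on every array, at 12.70 to 13.40 log2 in KO and 13.46 to 13.58 log2 in WT. So was Fabp4, at 13.66 to 13.81 log2 in KO and 13.66 to 13.90 log2 in WT. Brown adipocyte markers were lower in 6 of 6 genes and summed to 31.2 to 37.8 in KO and 36.1 to 42.0 in WT. Cidea, a lipid droplet protein, read 4.45, 4.93 and 7.23 log2 in KO, against 8.48, 9.21 and 8.11 log2 in WT (difference −3.07, SE 0.70, limma adjusted p = 0.229). Cox8b, a cytochrome oxidase subunit, read 7.95, 8.67 and 8.97 log2 in KO, against 9.51, 10.97 and 10.31 log2 in WT (difference −1.73, SE 0.41, limma adjusted p = 0.240). Neither gene's groups overlapped, and KO 3 came nearest to WT in both, as in most of the amino acid genes. The other 4 differed by −0.31 to −0.07 with overlap, and Ucp1 reached 6.25 in KO 3 and 7.27 in WT 3, against 4.20 and 4.24 in KO 1 and KO 2 and 3.79 and 3.84 in WT 1 and WT 2. Skeletal muscle markers summed to 31.8 to 36.9 in KO and 29.3 to 47.9 in WT, with WT 3 highest. Mesothelial markers summed to 33.8 to 44.3 in KO and 34.8 to 39.9 in WT, and mammary epithelial markers to 25.9 to 33.1 and 27.6 to 39.1. In both, KO 3 was the highest KO array and WT 3 the highest WT array. Hepatocyte markers were lower in 5 of 5, with Alb at −2.35 (SE 0.70) without overlap. Sums of stromal progenitor, endothelial and lymphocyte markers overlapped. The 2 erythroid markers summed to 10.5 to 10.8 in KO and 9.3 to 10.4 in WT. The part of these cells in the amino acid genes was not tested.

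The promoters of the 4 branched-chain genes with the smallest p and of Oxct1, the leucine-path gene that was not lower, are shown so that the start regions of genes with separate groups can be read beside that of a gene whose groups overlapped. Each runs from 250 bases before to 50 bases after the most upstream start of the gene, from RefSeq on GRCm38.p6, 5′ to 3′ on the gene's strand. Capitals mark CCACCC (a box for KLF factors), GGGCGG (a GC box) and CCAAT, each on either strand, and 1 pair of GC boxes overlaps in Acadsb.
Aldh6a1, chr12:84450975-84451274, minus strand: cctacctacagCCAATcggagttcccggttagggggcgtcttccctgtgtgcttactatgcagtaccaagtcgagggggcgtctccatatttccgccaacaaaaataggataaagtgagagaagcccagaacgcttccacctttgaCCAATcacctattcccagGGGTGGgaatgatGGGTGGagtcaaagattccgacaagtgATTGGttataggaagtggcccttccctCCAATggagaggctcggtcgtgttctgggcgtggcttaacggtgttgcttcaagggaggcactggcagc
Ppm1k, chr6:57535438-57535737, minus strand: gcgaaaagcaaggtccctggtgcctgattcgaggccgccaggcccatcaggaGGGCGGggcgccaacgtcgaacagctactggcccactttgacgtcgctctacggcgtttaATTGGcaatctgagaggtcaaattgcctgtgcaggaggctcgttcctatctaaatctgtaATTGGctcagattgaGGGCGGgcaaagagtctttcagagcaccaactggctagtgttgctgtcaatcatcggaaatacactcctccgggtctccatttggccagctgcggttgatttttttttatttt
Acadsb, chr7:131410351-131410650, plus strand: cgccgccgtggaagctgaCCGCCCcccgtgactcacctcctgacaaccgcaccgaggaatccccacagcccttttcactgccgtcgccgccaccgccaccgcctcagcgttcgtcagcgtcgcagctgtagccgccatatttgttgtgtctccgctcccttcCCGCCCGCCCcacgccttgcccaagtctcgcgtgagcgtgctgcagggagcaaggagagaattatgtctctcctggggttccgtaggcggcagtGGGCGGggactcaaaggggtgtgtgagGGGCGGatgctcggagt
Bcat2, chr7:45569903-45570202, plus strand: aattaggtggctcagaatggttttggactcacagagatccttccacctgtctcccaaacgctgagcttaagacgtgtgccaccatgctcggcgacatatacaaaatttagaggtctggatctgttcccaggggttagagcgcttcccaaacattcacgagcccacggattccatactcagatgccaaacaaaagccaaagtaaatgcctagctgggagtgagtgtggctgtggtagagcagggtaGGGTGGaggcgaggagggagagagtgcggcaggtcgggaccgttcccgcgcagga
Oxct1, chr15:4026178-4026477, plus strand: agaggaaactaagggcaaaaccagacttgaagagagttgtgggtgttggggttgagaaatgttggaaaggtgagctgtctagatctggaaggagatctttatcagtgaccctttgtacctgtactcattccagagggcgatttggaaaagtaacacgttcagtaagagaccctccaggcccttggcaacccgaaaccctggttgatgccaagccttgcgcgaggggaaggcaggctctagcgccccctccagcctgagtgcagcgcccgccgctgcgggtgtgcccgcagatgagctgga

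Aldh6a1 held 2 KLF boxes and 4 CCAAT motifs in this window, Ppm1k 2 GC boxes and 2 CCAAT motifs, Acadsb 5 GC boxes and Bcat2 1 KLF box. Oxct1 held 0 of the 3 motifs. Of the 36 members 30 matched a promoter, 20 of them branched-chain or propionate genes. CCAAT stood in 13 of these 20 (65%) and in 6 of the 10 other amino acid genes (60%), against 38.4% of the promoters of 14452 measured genes. The KLF box stood in 8 of 20 (40%) and 5 of 10 (50%), against 36.3% of all, and the GC box in 11 of 20 (55%) and 7 of 10 (70%), against 54.0%. CACGTG, the E-box that ChREBP and related factors recognize in part, stood in 1 of 20, in Mccc2, against 9.04% of all. The estrogen-related receptor half-site AAGGTCA stood in 0 of the 30 and in 3.84% of all, and the PPAR and RXR element AGGTCANAGGTCA in 0 of the 30 and in 0.0415% of all. The shares did not set the branched-chain genes apart from the other amino acid genes, and letters in a window say nothing of binding.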

How the data were processed

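The authors deposited RMA intensities, 1 per probe set and array, in linear units. RMA is named in the submitters' processing notes without a version, and the linear scale was read from the values. Log2 was taken with no pseudocount. Of 45101 probe sets, 34945 had exactly 1 gene symbol and 64 were controls. Symbols were updated by gene identifier to RefSeq genes of GRCm38.p6, which matched 34741. Each gene was represented by its probe set of highest mean over the 6 arrays, leaving 18193 genes.

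KO and WT were compared by limma 3.58.1 in R 4.3.3 (lmFit, eBayes without trend, two-sided, Benjamini-Hochberg over all genes, threshold 0.05), and standard errors are moderated. Precision is limited by the number of arrays (median SE 0.22 log2). In data simulated with the spread of these 18193 genes, 16 of 100 genes lowered by 1 log2 and 65 of 100 lowered by 2 log2 were recovered, with 1 false call. The simulation drew each gene independently, whereas on the real arrays many genes deviated together. Its counts therefore do not give error rates for these data. The members and lists were chosen with earlier results of these data known. Values on every array are given for the 10 branched-chain and propionate genes and 5 other genes of smallest p and for members above 0. From each list around the pathway up to 4 genes of smallest p were named, plus those higher at an unadjusted p under 0.05, and Esrra, Cpt1a, the named marker genes and the array values of Bckdk and Abat were added after their values were seen. Replicate numbers follow accession order and pair no arrays. Gene set enrichment analysis, named in the series' design text, was not run. Alternatives were a filter on dim genes, other probe set rules, repeated quantile normalization, median centring, eBayes with trend, the animal number series as a block and by itself, a Gapdh covariate and leaving out each array.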

Additional observations from a re-analysis of the deposited data

How the results depend on the processing

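No paired analysis was possible because the labels give no replicate numbers. With a block for the animal number series, 18 of the 36 genes were lower at an unadjusted limma p under 0.05 (5.73% of all genes), and 0 of all genes passed the adjusted threshold. Genes passing over the whole table numbered 1, and 12 with dim genes left out, 0 over every probe set, 2 with quantile normalization repeated, 16 with arrays centred on their median gene, 10 with trend, 6 with the Gapdh covariate, 487 within the higher-numbered series and 0 to 816 with 1 array left out (816 without KO 3, 9 without WT 3, 0 without any other). Genes of the 36 lower at an unadjusted p under 0.05 numbered 9 to 24 with 1 array left out (2.86% to 7.51% of all genes), and 27 of 74 probe sets (4.38% of all probe sets). With quantile normalization repeated they numbered 24, against 8.52% of all genes. Those with no overlap numbered 12 (8.56% of all genes), and 23 of 74 probe sets (7.65%), 22 with quantile normalization repeated (12.1%), 19 with centring (10.5%), 24 within the higher-numbered series (21.1%) and 12 to 26 with 1 array left out (11.2% to 20.7%). The median of the branched-chain and propionate genes was −0.36 within the lower-numbered pair, and −1.07 to −0.59 with 1 array left out. Signs turned for 8 of the 36 genes under at least 1 setting. Aldh4a1, Mmab and Bckdk turned to 0.23, 0.17 and 0.15 within the lower-numbered pair. Abat turned to 0.46, 0.31 and 0.09 without WT 3, KO 1 and KO 2 and to 0.24 with the Gapdh covariate, and stood at −0.58 without KO 3. Glud1 turned to 0.0033 without WT 2 and 0.0088 without KO 1. Without WT 3 Oxct1 stood at 0.44 and Aass at 0.54. Oxct1 and Gcsh turned to −0.26 and −0.22 without WT 1 and to −0.10 and −0.11 without KO 3, and Aass to −0.14 without KO 3. The cause was not tested. Of the 7 genes named without KO 3, Aldh6a1, Bcat2, Hsd17b10 and Ivd also passed limma within the higher-numbered series (adjusted p = 0.0334 to 0.0444). There 118 of all 18193 genes passed as lower. Of 38 other probe sets of 21 members, 33 had the sign of the one used. Signal limited Aass and Gldc, whose means lay below the median of all genes.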
